A study of Mus musculus with 11 samples.

Results

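The comparison took 5 of the 11 libraries of the study, chosen by their labels: 2 of parental SMB21 cells kept for 24 h in sonidegib (LDE225), a Smoothened inhibitor, and 3 of untreated parental SMB21 cells. SMB21 is a medulloblastoma cell line on the Ptch mutant background Ptch1tm1Mps/J, labelled adult, and both groups carry that background. The cells grew as neurospheres in DMEM/F12 with B27, and RNA was taken with a column kit. Stranded poly(A) libraries used 500 ng input and gave single-end reads of 75 bp, all 11 libraries sharing 1 instrument run. The other 6 libraries are of Sufu-mutant (2) and Ofd1-mutant (4) derivatives and entered only where stated. The data describe 1 line, the sonidegib concentration is not given in the sources used here, and the labels do not name a vehicle. The libraries are labelled biological replicates with nothing on separate cultures, so p-values measure the spread between these samples.

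Blocking Smoothened for 24 h in a mouse medulloblastoma line left Gli1, the transcriptional effector of Hedgehog signalling, at 7.68 and 8.66 CPM (counts relative to the TMM-scaled library total) in the sonidegib libraries, against 224, 218 and 241 CPM in the untreated ones. Beyond the Hedgehog targets, transcripts for DNA replication, S phase repair and mitosis were lower as groups. A log2 fold change below 0 was found in 45 of 48 replication genes, 41 of 43 repair genes and 54 of 55 kinetochore genes. Over all genes tested it was found in 6575 of 13809. The sorting receptor Sorcs2 and the semaphorin receptor Plxna2 fell too. Igfbp5, a binding protein for insulin-like growth factors, was the 1 gene that rose past the test. The progenitor transcription factors Barhl1 and Atoh1 stood above every untreated library without passing the test. Of the 23 tested genes of the granule progenitor list, 11 lay above every untreated library (47.8%, against 17.9% of all genes tested). The list also holds Nhlh1, a factor of newly formed granule neurons.

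In the Hedgehog pathway, Patched holds Smoothened inactive until a ligand arrives. Loss of Patched frees Smoothened, which turns Gli proteins into activators of genes such as Gli1 and Hhip. In the developing cerebellum this signal keeps granule cell progenitors dividing, and tumours with Patched mutations arise from those progenitors. Sonidegib binds Smoothened and shuts the signal off below Patched.

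The line was checked against markers of its lineage. Atoh1, the defining transcription factor of granule cell progenitors, stood at 962 and 714 CPM in sonidegib libraries 1 and 2, and at 545, 469 and 396 CPM in parental libraries 1, 2 and 3. Zic1, a zinc finger factor of the same lineage, stood at 581 and 596 CPM with sonidegib and at 474, 485 and 600.5 CPM without. All 8 lineage markers examined were detected in each of the 5 libraries.

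The libraries were not equally alike, and 2 of them stood apart. Totals were 29294858 and 34419880 counts with sonidegib, and between 32376390 and 38241595 counts without. In sonidegib 2 the signal fell off with transcript length. The shortest 10% of genes had a median log2 difference from the parental mean of 0.85 in sonidegib 2 and -0.04 in sonidegib 1, and the longest 10% had -0.79 in sonidegib 2 and -0.04 in sonidegib 1. The 3 parental libraries lay between -0.07 and 0.09 in every length class. Across genes, deviation from the median of all libraries correlated with log2 length at r = -0.407 in sonidegib 2 and between -0.0549 and 0.0842 in the other 10 libraries. Parental 3 differed from parental 1 and 2 with an SD of the log2 difference of 0.761 and 0.747 across genes, while parental 1 and 2 differed by 0.382. Sonidegib 1 differed by 0.636 and 0.616 from parental 1 and 2, less than parental 3 did. Values of single libraries are therefore given for most genes named.

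**Figure D1:**
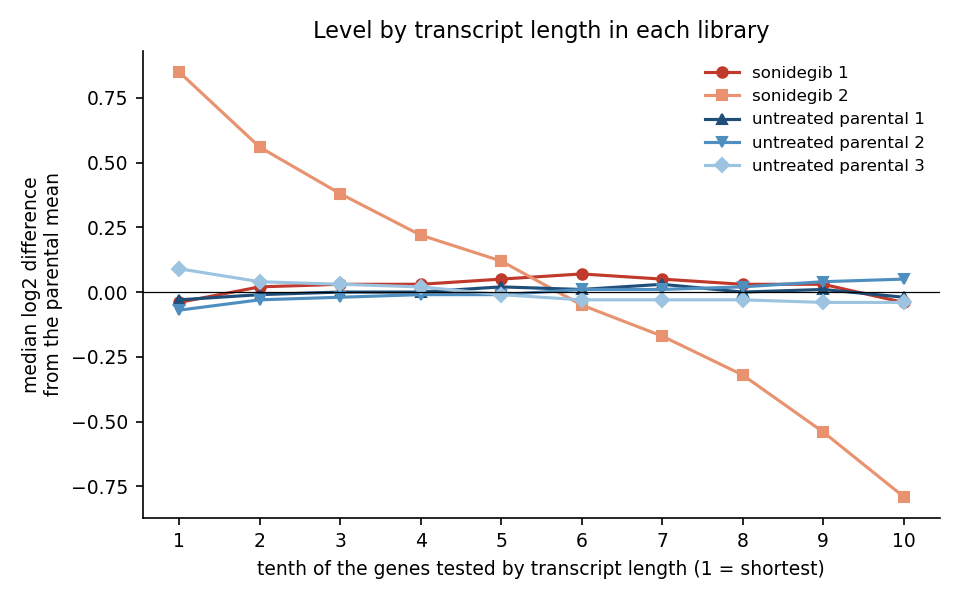
Median log2 difference from the mean of the 3 untreated parental libraries (vertical axis) for genes ordered by transcript length in 10 classes of equal size (horizontal axis, shortest at left), with 1 line per library. The line of sonidegib 2 runs from 0.85 to -0.79 and the other 4 stay near 0.

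Of 22619 genes in the table, 13809 passed the filter on low counts and were tested. At an adjusted p under 0.05 (edgeR's quasi-likelihood test with Benjamini-Hochberg adjustment), 9 genes changed, 0.0652% of those tested. Of these, 8 fell (0.0579%) and 1 rose (0.00724%). An unadjusted p under 0.05 was reached by 1939 genes, and an adjusted p under 0.10 by 22 higher and 98 lower genes. DESeq2 called 217 higher and 506 lower genes on the same table, so the count depends on the test. It depends as much on the libraries: edgeR called 3263 genes without sonidegib 1, 1 without sonidegib 2, 1 without parental 1, 2 without parental 2 and 0 without parental 3, where 1405 genes still had an unadjusted p under 0.05 and DESeq2 called 478.

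A description that shows every library was used beside the test. A gene was counted as separated where both sonidegib libraries lay at least 2-fold beyond all 3 parental libraries and the higher group averaged at least 5 CPM. By that rule 162 genes (1.17%) were lower and 40 genes (0.29%) higher with sonidegib, 202 in all (1.46%). DESeq2 called 200 of the 202, and 111 of them had an edgeR adjusted p under 0.10. The number grew to 1860 without sonidegib 1, to 338 without sonidegib 2, to 322 without parental 3 and to 448 without both sonidegib 2 and parental 3, with more lower than higher genes each time. With the length trend of each library removed, 119 of the 162 lower and 32 of the 40 higher genes were still separated. Complete separation without the 2-fold margin held for 2248 genes below (16.3%) and 2472 genes above (17.9%) all parental libraries. The median log2 fold change of all genes tested was 0.04.

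**Figure D2:**
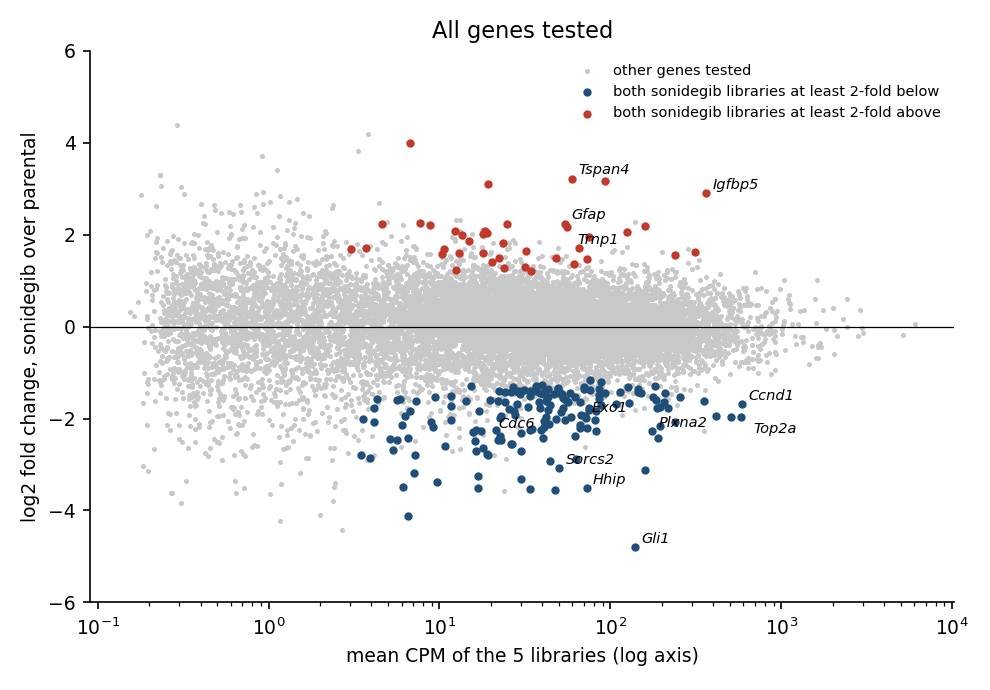
Log2 fold change of sonidegib over untreated parental cells (vertical axis) against mean CPM of the 5 libraries (horizontal axis, log scale) for the 13809 genes tested. The 40 genes at least 2-fold above (red) and the 162 at least 2-fold below (blue) every parental library are coloured, and Gli1 lies lowest of them.

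Among the genes called, Gli1 had the largest fall. It had a log2 fold change of -4.80 ± 0.24 (SE, adjusted p = 0.00287), and its groups were far apart. Hhip, a membrane protein that binds and sequesters Hedgehog ligand, stood at 9.64 and 10.5 CPM with sonidegib and at 120.2, 85.9 and 137 CPM in parental cells (log2 fold change -3.51 ± 0.29, adjusted p = 0.0309). In both genes the sonidegib libraries lay within a narrow band and the lowest parental library was far above it. Ptch1, the mutated receptor of the line and itself a target, stood at 37.5 and 1.17 CPM with sonidegib, against 66.0, 86.6 and 79.6 CPM without. The sonidegib libraries of Ptch1 lay far apart from each other, and the adjusted p was 0.435.

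Targets that link Hedgehog to the cell cycle and survival were below the parental range too. Ccnd1, which encodes cyclin D1, stood at 253 and 252 CPM with sonidegib and at 843, 866 and 718 CPM in parental cells, with a log2 fold change of -1.68 ± 0.22 and an adjusted p of 0.0847. Bcl2, an inhibitor of apoptosis, stood at 65.5 and 68.2 CPM with sonidegib and at 146, 167 and 187 CPM without (adjusted p = 0.0847). Cdk6, a partner kinase of D cyclins, differed between the treated libraries, at 26.9 and 6.90 CPM, against 64.7, 74.8 and 65.8 CPM in parental cells. Gli2, the main Gli activator, stood at 142 and 77.3 CPM with sonidegib and at 332, 333 and 249 CPM without (adjusted p = 0.141).

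Other listed targets did not follow. Mycn, the proto-oncogene that carries the proliferative signal in granule cell progenitors, stood at 65.9 and 77.9 CPM with sonidegib and at 49.5, 58.4 and 61.4 CPM in parental cells (adjusted p = 0.456). Ccnd2, the other D cyclin of these progenitors, stood at 1096 and 550.1 CPM with sonidegib and at 1030.1, 999 and 667 CPM without, with overlapping groups. Of the 15 listed targets 14 were tested. Their median log2 fold change was -1.58 (0.04 over all genes), 12 were below 0 and 3 fell past the test. Of the 14, 6 were separated downward (42.9%, against 1.17% of all genes).

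Genes off the Hedgehog list also fell. Sorcs2, a sortilin-family receptor that sorts neurotrophin receptors, stood at 10.8 and 7.61 CPM with sonidegib and at 85.0, 71.3 and 76.2 CPM in parental cells (log2 fold change -3.07 ± 0.27, adjusted p = 0.0309). Plxna2, a plexin receptor for semaphorins, stood at 56.6 and 50.4 CPM with sonidegib, against 226, 262 and 284 CPM in parental cells (log2 fold change -2.27 ± 0.23, adjusted p = 0.0411). In both genes all treated libraries lay far below all parental ones. The uncharacterised 9530053A07Rik stood at 8.58 and 9.27 CPM with sonidegib and at 80.9, 66.4 and 55.7 CPM in parental cells (adjusted p = 0.0339). Plxna2 and 9530053A07Rik have long transcripts, and with the length trend removed their adjusted p was 0.0776 and 0.0550, at log2 fold changes of -1.56 and -2.35.

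Cdc6, the loader of the replicative helicase onto origins, stood at 14.5 CPM in both sonidegib libraries and at 68.5, 60.4 and 60.1 CPM in parental cells (log2 fold change -2.12 ± 0.22, adjusted p = 0.0411). Exo1, a nuclease of mismatch repair and of resection of broken DNA ends, stood at 26.9 and 25.6 CPM with sonidegib, against 103, 98.7 and 103 CPM in parental cells (log2 fold change -1.95 ± 0.20, adjusted p = 0.0411). The libraries within each group of Exo1 were nearly level. With the length trend removed the adjusted p of Exo1 was 0.0756 at a log2 fold change of -1.41.

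Igfbp5 stood at 852 and 666 CPM with sonidegib and at 96.2, 116 and 91.5 CPM in parental cells (log2 fold change 2.91 ± 0.23, adjusted p = 0.0309). The lower treated library was still well above the highest parental one. Calls rested on few libraries: without sonidegib 2 or without parental 1 only Gli1 kept an adjusted p under 0.05 (0.0278 and 0.0192), without parental 2 only Gli1 and Hhip did (0.0152 and 0.0386), and without parental 3 none did, Gli1 having 0.0678. Across those fits and the other alternatives the log2 fold change of Gli1 ran from -4.91 to -4.65, that of Cdc6 from -2.18 to -1.90 and that of Igfbp5 from 2.68 to 3.27.

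**Figure D3:**
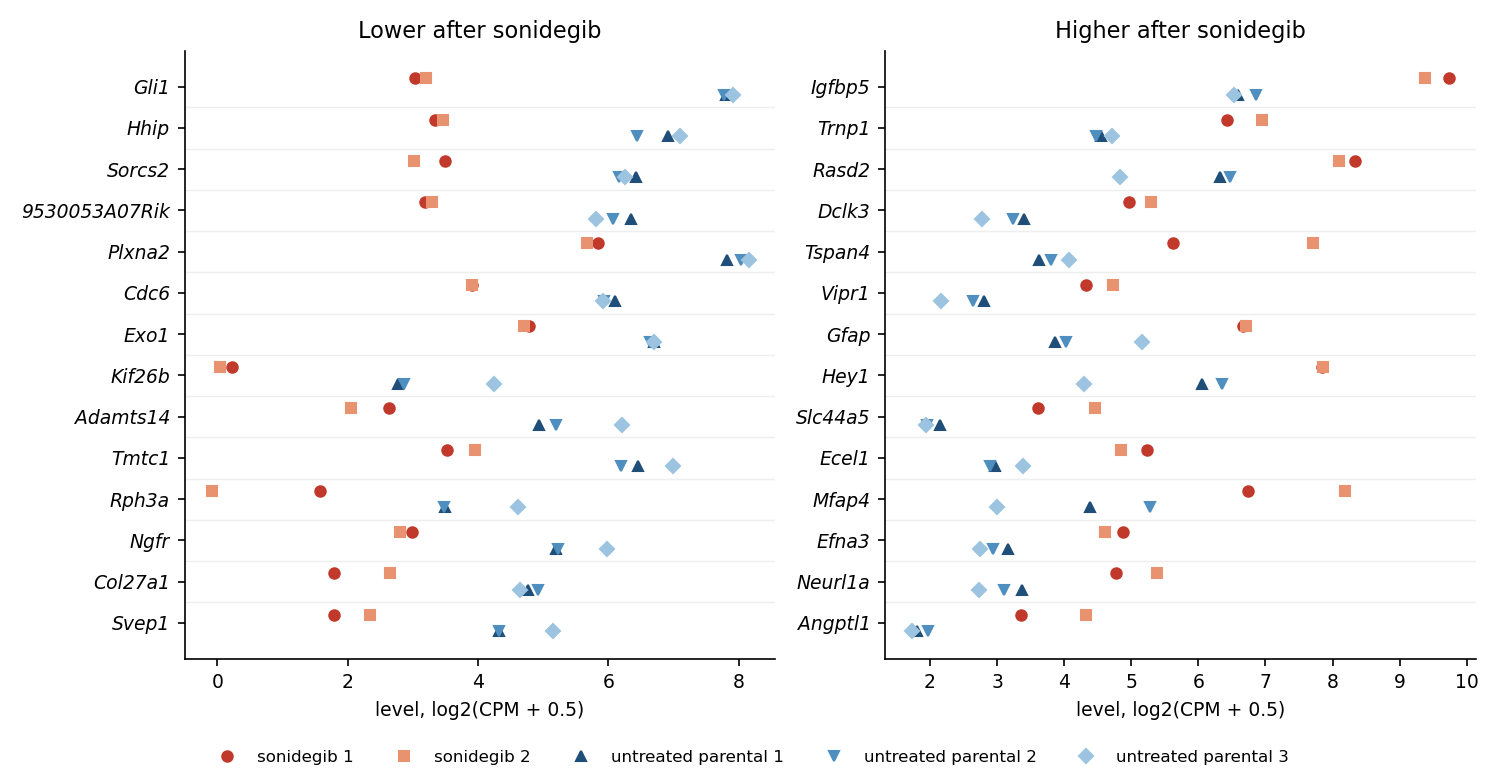
Levels as log2(CPM + 0.5) (horizontal axis) in the 2 sonidegib libraries (red shades, upper points of each gene) and the 3 untreated parental libraries (blue shades, lower points) for genes lower (left) and higher (right) with sonidegib. In each of the 28 genes shown, chosen for wide gaps between the groups, the red points lie outside the range of the blue ones.

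Further genes had wide gaps below the parental range without passing the test. Ngfr, the p75 neurotrophin receptor, stood at 7.41 and 6.44 CPM with sonidegib and at 36.0, 36.9 and 62.6 CPM in parental cells (log2 fold change -2.70 ± 0.35, adjusted p = 0.0847). Adamts14, a procollagen-processing protease, stood at 5.71 and 3.63 CPM with sonidegib, against 30.1, 36.1 and 73.7 CPM without. Col27a1, a fibrillar collagen, stood at 2.97 and 5.76 CPM with sonidegib and at 26.8, 29.8 and 24.4 CPM without. Parental 3 was the highest library for Ngfr and Adamts14 and the lowest for Col27a1. Tmtc1, an O-mannosyltransferase of the endoplasmic reticulum, averaged 13.0 ± 2.76 CPM with sonidegib (SD, n = 2) and 95.8 ± 27.9 CPM in parental cells (n = 3), where the lowest library had 73.1 CPM (adjusted p = 0.0691). For these genes no treated library overlapped a parental one. Kif26b, a kinesin-family protein, was at 0.667 and 0.527 CPM with sonidegib and at 6.32, 6.79 and 18.4 CPM in parental cells (log2 fold change -4.13, adjusted p = 0.0884). Svep1, a matrix protein, was at 2.97 and 4.59 CPM with sonidegib and at 19.5, 19.4 and 35.1 CPM without (adjusted p = 0.0847). Rabphilin (Rph3a) was at 2.47 and 0.439 CPM with sonidegib and at 10.8, 10.6 and 24.0 CPM without (adjusted p = 0.182). Parental 3 was the highest library for all 3.

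Genes with the widest gaps above the parental range included several of neurons and glia, none past the test apart from Igfbp5. Trnp1, a nuclear protein that regulates neural progenitor division, averaged 105 ± 26.8 CPM with sonidegib (SD, n = 2), the lower library having 85.6 CPM, and stood at 23.0, 21.7 and 25.6 CPM in parental cells (log2 fold change 2.16 ± 0.23, adjusted p = 0.0531). Ecel1, an endopeptidase of neurons, stood at 37.0 and 28.3 CPM with sonidegib, against 7.33, 6.92 and 9.98 CPM in parental cells (adjusted p = 0.0847). Dclk3, a doublecortin-like kinase, stood at 30.9 and 38.8 CPM with sonidegib and at 10.1, 8.93 and 6.37 CPM in parental cells (adjusted p = 0.0847). For all 3 the groups were at least 2-fold apart. Others disagreed more within a group. The tetraspanin Tspan4 was at 48.6 and 209 CPM with sonidegib and at 11.8, 13.4 and 16.3 CPM in parental cells. Mfap4, a matrix protein, was at 106 and 291 CPM with sonidegib and at 20.3, 38.2 and 7.51 CPM in parental cells (adjusted p = 0.138). Rasd2, a small GTPase of neurons, was at 323 and 273 CPM with sonidegib and at 79.7, 88.3 and 28.0 CPM in parental cells (adjusted p = 0.130).

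Transcripts of the replication machinery were lower as a group. All 48 listed genes of origin licensing and the fork were tested, and their median log2 difference from parental cells was -1.18 in sonidegib 1 and -1.10 in sonidegib 2 (0.02 and 0.03 over all genes). The fold change was below 0 in 45 of the 48, 40 (83.3%, against 16.3% of all genes) lay below every parental library and 15 were separated downward (31.2%, against 1.17%). The rule is easier to meet with fewer libraries, for all genes alike. Without sonidegib 2 the separated count was 23 (47.9%, against 1.86% of all genes). Without parental 3 it was 26 (54.2%, against 1.95%) and without both it was 33 (68.8%, against 2.45%). The list's median was -0.20 in parental 3, against 0.15 and 0.05 in parental 1 and 2. In these bulk libraries, fewer cells in S phase and less of each RNA per cell cannot be told apart.

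Mcm10, which helps to start the replicative helicase, stood at 29.5 and 16.7 CPM with sonidegib and at 119.8, 106 and 92.4 CPM in parental cells (log2 fold change -2.20 ± 0.31, adjusted p = 0.0847). Pole, the catalytic subunit of leading-strand polymerase, stood at 29.2 and 21.4 CPM with sonidegib, against 104, 99.9 and 82.6 CPM in parental cells (adjusted p = 0.0847). Top2a, the topoisomerase that untangles replicated DNA, stood at 281 and 143 CPM with sonidegib and at 745, 898 and 825 CPM in parental cells (adjusted p = 0.0892). For Mcm10, Pole and Top2a the lower of the treated values was in sonidegib 2. The helicase subunits Mcm3, Mcm4 and Mcm5 had log2 fold changes of -1.76, -1.62 and -1.42, and the origin recognition subunit Orc1 had -1.52. The exceptions were Rpa3, the small subunit of the single-strand binding complex, at 0.81, Rfc1, the large clamp loader subunit, at 0.09, and Orc6 at 0.00. The Mcm, Orc1 and exception genes were chosen after their values were seen.

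Supply and repair of DNA showed the same direction. Rrm2, the regulated subunit of ribonucleotide reductase, stood at 25.2 and 31.2 CPM with sonidegib and at 129.6, 103 and 115 CPM in parental cells (log2 fold change -2.04 ± 0.23, adjusted p = 0.0617). Among the 30 nucleotide supply genes, all tested, the median log2 fold change was -0.65. Of these, 4 were separated downward (13.3%, against 1.17% of all genes), among them Rrm2, thymidine kinase Tk1 and the folate enzyme Shmt1. The 43 genes of repair and the S phase checkpoint had a median of -1.30, 41 below 0 and 15 separated downward (34.9%). Without parental 3 the separated repair genes numbered 23 and the separated nucleotide genes 5 (53.5% and 16.7%, against 1.95% of all genes). Without sonidegib 2 they numbered 18 and 7 (41.9% and 23.3%, against 1.86%). Uhrf1, which carries DNA methylation through replication, stood at 81.2 and 83.1 CPM with sonidegib and at 249, 238 and 230.4 CPM in parental cells (adjusted p = 0.0847). Bard1, the partner of Brca1, stood at 19.9 and 20.6 CPM with sonidegib, against 56.9, 62.1 and 57.0 CPM without (adjusted p = 0.0847). The treated libraries were nearly level for both genes. Fancd2, of the Fanconi crosslink repair pathway, was at 19.3 and 6.99 CPM with sonidegib and at 60.8, 61.6 and 56.1 CPM in parental cells.

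The promoters of such genes are shown because E2F and cell cycle homology region (CHR) motifs are textbook elements of S phase and mitotic genes. Sequences are from RefSeq, build GRCm38.p6, 250 bases before to 50 after the annotated start, 5′ to 3′ on the gene's strand, with motif matches on either strand in capitals. E2F was searched as TTTCCCGC, TTTGGCGC, TTTCGCGC or TTTGGCGG and CHR as TTTGAA, each without regard to the other. The Cdc6 window is chr11:98907901-98908200 (plus strand), that of Ncapg2 is chr12:116405186-116405485 (plus strand) and that of Top2a is chr11:99024140-99024439 (minus strand). Ncapg2 encodes a condensin subunit.
Cdc6: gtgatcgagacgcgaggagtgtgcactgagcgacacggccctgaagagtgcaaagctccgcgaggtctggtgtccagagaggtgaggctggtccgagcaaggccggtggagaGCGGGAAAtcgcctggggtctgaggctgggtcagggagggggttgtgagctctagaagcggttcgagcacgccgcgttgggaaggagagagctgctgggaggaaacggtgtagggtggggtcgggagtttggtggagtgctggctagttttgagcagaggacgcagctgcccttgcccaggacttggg
Ncapg2: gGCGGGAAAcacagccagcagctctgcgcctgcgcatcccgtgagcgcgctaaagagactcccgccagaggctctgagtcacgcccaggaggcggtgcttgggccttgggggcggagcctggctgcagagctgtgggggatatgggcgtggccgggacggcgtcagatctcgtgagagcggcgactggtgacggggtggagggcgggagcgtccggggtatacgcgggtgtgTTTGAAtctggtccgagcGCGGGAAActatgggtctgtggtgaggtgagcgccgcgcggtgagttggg
Top2a: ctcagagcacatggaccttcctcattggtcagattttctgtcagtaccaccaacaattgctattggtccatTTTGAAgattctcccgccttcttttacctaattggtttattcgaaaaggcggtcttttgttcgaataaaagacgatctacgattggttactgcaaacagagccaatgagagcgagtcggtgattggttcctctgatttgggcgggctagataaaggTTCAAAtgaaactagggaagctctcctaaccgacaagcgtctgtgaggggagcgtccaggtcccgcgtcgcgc
Cdc6 holds 1 E2F match, at base 113 of the window. Ncapg2 holds E2F matches at bases 2 and 251 and a CHR match at base 233. Top2a holds CHR matches at bases 72 and 228.

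Across the genes tested that had a promoter in the table, 4.32% of 10093 held an E2F motif and 11.2% a CHR motif, and across all 27025 promoters 2.42% and 18.1% did. An E2F motif was in 17 of 38 replication promoters (44.7%), in 20 of 114 promoters of genes separated downward (17.5%) and in 0 of 30 of those separated upward. A CHR motif was in 31 of 41 promoters of mitotic kinesin and cytokinesis genes (75.6%), in 18 of 41 of kinetochore genes (43.9%), in 23 of 114 of genes separated downward (20.2%) and in 1 of 30 of those separated upward. The Gli motif GACCACCCA was in 2 of the 114 (1.75%), in 0 of the 30 and in 23 of the 10093 (0.228%). It was in 0 of the 9 promoters of listed Hedgehog targets and in 0 of the 5 promoters of called genes. The shares of the lists do not depend on the fold changes of their members. The genes separated downward included 15 replication, 7 kinetochore and 6 kinesin and cytokinesis genes, so their shares are not independent of the list shares. All shares describe windows around the start, a match is not a bound site, and a window with no match lacks only these letters.

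**Figure D4:**
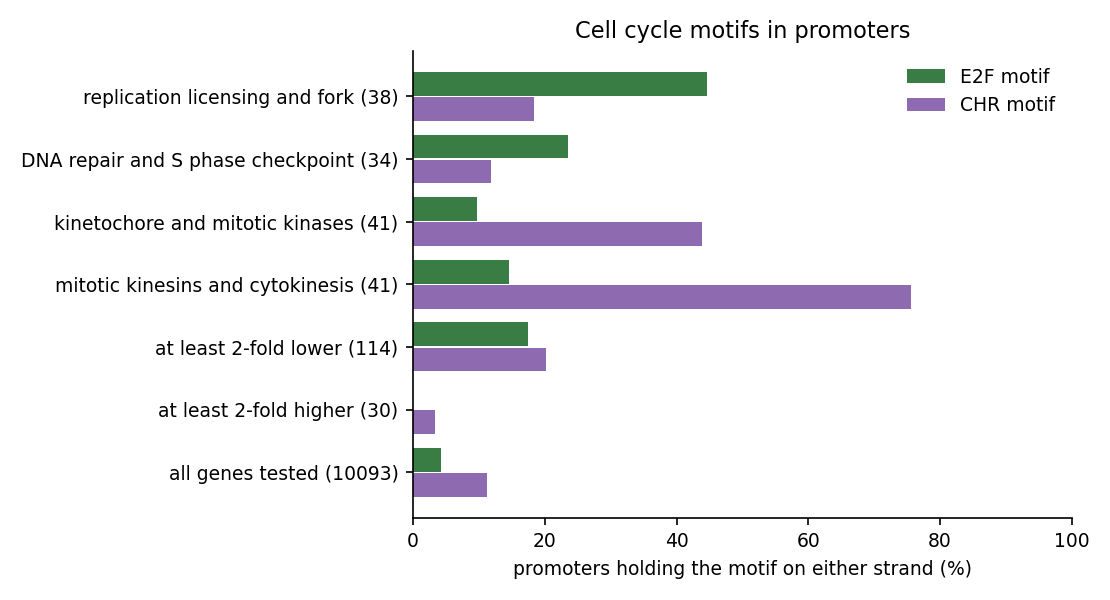
Share of promoters (horizontal axis, %) that hold an E2F motif (green) or a CHR motif (violet) on either strand, for 4 cell cycle gene lists, the genes separated downward and upward with sonidegib, and all genes tested, with the number of promoters in brackets. E2F is highest in the replication list at 44.7% and CHR in the kinesin and cytokinesis list at 75.6%. The genes separated downward include members of the 4 lists.

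Mitotic genes were lower as well. Of 60 listed symbols of kinetochore and mitotic kinase genes, 55 were in the table of counts and all 55 were tested. They had a median log2 fold change of -1.11, with 54 below 0. Of the 55, 48 lay below every parental library (87.3%, against 16.3% of all genes) and 7 were separated downward (12.7%, against 1.17%). The separated count was 17 without sonidegib 2 (30.9%, against 1.86% of all genes). It was 25 without parental 3 (45.5%, against 1.95%) and 36 without both (65.5%, against 2.45%). The list's median was -0.19 in parental 3, against 0.06 and 0.12 in parental 1 and 2. Aurkb, the kinase of the chromosomal passenger complex, stood at 26.3 and 23.8 CPM with sonidegib and at 69.7, 77.4 and 59.7 CPM in parental cells (log2 fold change -1.46 ± 0.22, adjusted p = 0.0847). Zwilch, a kinetochore protein of the spindle checkpoint, stood at 19.8 and 19.6 CPM with sonidegib, against 49.5, 55.4 and 57.3 CPM without (adjusted p = 0.0847). Pbk, a mitotic kinase, stood at 16.9 and 20.2 CPM with sonidegib and at 54.0, 53.7 and 63.8 CPM without (adjusted p = 0.0847). For these genes no treated library came near a parental one.

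All 47 mitotic kinesin and cytokinesis genes were tested, and 46 were below 0 with a median of -1.22. The median difference was -0.93 in sonidegib 1 and -1.49 in sonidegib 2, and -1.20 for both with the length trend removed. Ncapg2 stood at 35.2 and 24.5 CPM with sonidegib and at 117, 109 and 89.0 CPM in parental cells (adjusted p = 0.0847). Kif15, a spindle motor, stood at 20.4 and 18.7 CPM with sonidegib, against 49.5, 51.8 and 42.7 CPM without (adjusted p = 0.0892). Anln, a scaffold of the contractile ring, stood at 57.4 and 35.2 CPM with sonidegib and at 138, 189.5 and 117 CPM without (adjusted p = 0.117). The list had 6 genes separated downward (12.8%, against 1.17% of all genes). The separated count stayed at 6 without sonidegib 2 (12.8%, against 1.86% of all genes). It was 27 without parental 3 (57.4%, against 1.95%) and 25 without both (53.2%, against 2.45%).

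Regulators of the cycle were covered by a pair of lists. Of 44 cyclins, cycle kinases and E2f or Myb family genes, 12 were separated downward (27.3%, against 1.17% of all genes). The list's median was -0.84 (0.04 over all genes). Mybl2, a Myb activator of mitotic genes, stood at 15.3 and 15.1 CPM with sonidegib and at 68.1, 64.4 and 46.1 CPM in parental cells (log2 fold change -1.97 ± 0.26, adjusted p = 0.0847). E2f8, a repressor E2F, stood at 15.9 and 8.48 CPM with sonidegib and at 60.9, 60.0 and 51.5 CPM without, and E2f2, an activator E2F, at 7.74 and 5.68 CPM with sonidegib and 23.5, 24.5 and 23.9 CPM without (both adjusted p = 0.0847). In the list of inhibitors and quiescence genes the median was 0.05, with 24 of 43 tested above 0. Its 1 gene separated upward (2.33%, against 0.29% of all genes) was Mxd4, a Max partner that opposes Myc. Mxd4 stood at 55.4 and 49.0 CPM with sonidegib and at 23.1, 20.3 and 23.7 CPM without (adjusted p = 0.0899). The 2 genes of this list separated downward (4.65%, against 1.17%) were the forkhead factor Foxo6 and the stress gene Gadd45b. Foxo6 stood at 7.74 and 5.68 CPM with sonidegib and at 28.1, 36.1 and 54.2 CPM without. Gadd45b stood at 2.47 and 2.81 CPM with sonidegib and at 8.91, 8.77 and 10.7 CPM without.

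Among 37 tested genes of chromatin in replicating cells, 32 were below 0 and 5 were separated downward (13.5%, against 1.17% of all genes). Chaf1a, of the histone chaperone that follows the fork, stood at 43.4 and 39.3 CPM with sonidegib and at 119, 109.5 and 119 CPM in parental cells (adjusted p = 0.0847). Atad2, a bromodomain ATPase, stood at 103 and 59.6 CPM with sonidegib, against 362, 371 and 303 CPM without (adjusted p = 0.0847). The treated libraries of Atad2 differed from each other but both lay far under the parental ones. The replication histone list, the one with the shortest transcripts, had a median difference of -0.55 in sonidegib 1 and 0.11 in sonidegib 2. Its median was -0.78 with the length trend removed and -0.98 without sonidegib 2, where 55 of 61 tested were below 0. It held no separated gene. Those messages are short, lack poly(A) tails and come from near-identical copies, so their counts are uncertain.

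Lineage transcripts were not lower. Of the 24 genes on the granule progenitor list 23 were tested, 19 had a fold change above 0 and none was separated. Their median was 0.27 (0.04 over all genes), and 11 lay above every parental library (47.8%, against 17.9%). Barhl1, a homeobox factor of granule cells, stood at 917 and 1201 CPM with sonidegib and at 477, 552 and 375 CPM in parental cells (log2 fold change 1.18 ± 0.25, adjusted p = 0.137). Nhlh1, a helix-loop-helix factor of newly formed granule neurons, stood at 468 and 594 CPM with sonidegib, against 336, 256 and 163 CPM without (adjusted p = 0.247). Pax6 stood at 179 and 256 CPM with sonidegib and at 134, 122 and 109 CPM without (adjusted p = 0.217). The groups of these 3 genes did not overlap, and none of the 3 passed the test.

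Neuronal genes differed in direction, from gene to gene and in the medians of the 2 treated libraries. The 43 tested genes of differentiating granule neurons had a median difference of 0.33 in sonidegib 1 and -0.23 in sonidegib 2, and 0.38 for both with the length trend removed. The fold change was above 0 in 25 of them and below 0 in 18. Neurod2, a factor of maturing neurons, stood at 26.0 and 27.9 CPM with sonidegib and at 10.5, 10.7 and 14.6 CPM in parental cells (adjusted p = 0.167). Unc5a, a netrin receptor, stood at 40.6 and 15.7 CPM with sonidegib, against 7.11, 9.75 and 3.90 CPM without (adjusted p = 0.193). Grin2b, an NMDA receptor subunit with a long transcript, was lower with sonidegib, at 1.30 and 0.293 CPM against 2.84, 3.88 and 3.90 CPM. Etv1, of the same list, was lower too, at 8.21 and 7.11 CPM against 16.1, 18.2 and 33.6 CPM (adjusted p = 0.197). Among 48 tested synaptic release genes the median was 0.06, and the 1 separated gene was Syn2, a synaptic vesicle protein, at 92.9 and 144 CPM with sonidegib and 45.5, 42.4 and 41.7 CPM without (log2 fold change 1.46 ± 0.24, adjusted p = 0.0874). Shank2, a postsynaptic scaffold, was at 34.6 and 6.99 CPM with sonidegib and at 69.1, 69.7 and 102 CPM without, a wide gap between the treated libraries. Syt13, of the synaptic release list, was at 156 and 210.0 CPM with sonidegib and at 499, 386 and 545 CPM without (adjusted p = 0.112). In that list 25 genes were above 0 and 23 below.

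The 17 tested neural stem genes had a median of -0.48, and -0.15 with the length trend removed, with 5 above 0, and the 11 tested astrocyte markers had a median of -0.01. Nes, an intermediate filament of neural progenitors, stood at 106 and 132 CPM with sonidegib and at 318, 299.9 and 419 CPM in parental cells (log2 fold change -1.54 ± 0.25, adjusted p = 0.0874). Sox1 stood at 69.7 and 72.8 CPM with sonidegib, against 141, 134 and 144 CPM without (adjusted p = 0.118). Gfap, the astrocyte intermediate filament, stood at 101 and 104 CPM with sonidegib and averaged 21.7 ± 11.8 CPM in parental cells (SD, n = 3), with 35.3 CPM in parental 3 the highest (log2 fold change 2.24 ± 0.41, adjusted p = 0.105). Gfap was the 1 separated gene of 14 astrocyte markers, of which 11 were tested. The other 13 markers summed to 1778 and 969 CPM with sonidegib and to 1909, 1968 and 840.0 CPM without, and Aqp4 and Gjb6 were at 0 in all 5 libraries. The sums of sonidegib 2 and parental 3 were close, as were those of the other 3 libraries. Glul, the most abundant of these markers, stood at 792 and 254 CPM with sonidegib and at 1208, 1116 and 302 CPM without.

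Markers of other cell types were at low levels apart from Pdgfra, Cnp and Fn1. The 15 microglial markers summed to 1.77 and 3.54 CPM with sonidegib and to between 1.61 and 1.69 CPM in parental cells, with Aif1, Trem2 and P2ry12 at 0. The 11 endothelial markers summed to 2.90 and 4.53 CPM with sonidegib and to 4.71, 4.12 and 12.9 CPM without, with Tie1 and Cldn5 at 0. Fibroblast markers summed to 29.1 and 6.99 CPM with sonidegib and to 37.0 and 13.9 CPM in parental 1 and 3, with Dcn and Postn at 0. Oligodendrocyte-lineage markers summed to 85.2 and 132 CPM with sonidegib and to 174, 179.8 and 407 CPM without, and Mag was at 0. Pdgfra, a growth factor receptor of oligodendrocyte precursors, made up most of that sum, at 50.3 and 78.2 CPM with sonidegib and 146, 147 and 362 CPM without (adjusted p = 0.215). Cnp, of the same list as Pdgfra, stood at 23.9 and 43.0 CPM with sonidegib and at 17.1, 20.7 and 31.5 CPM without. The part of any of these cell types in the other results was not tested.

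Signalling lists held small sets of separated genes. In the ERK feedback and immediate early list 27 of 29 were tested, with a median of -0.89 and 19 below 0. In that list 3 were separated downward (11.1%, against 1.17% of all genes). Dusp6, the phosphatase that ERK induces against itself, stood at 12.5 and 9.42 CPM with sonidegib and at 44.3, 43.1 and 65.3 CPM in parental cells (log2 fold change -2.22 ± 0.31, adjusted p = 0.0847). Spry4, a feedback inhibitor of receptor tyrosine kinases, stood at 5.41 and 2.78 CPM with sonidegib, against 13.6, 17.6 and 19.4 CPM without (adjusted p = 0.124). The AP-1 subunit gene Fosl2 stood at 24.9 and 26.2 CPM with sonidegib and at 58.8, 58.7 and 78.7 CPM without (adjusted p = 0.0899). All 3 had parental 3 as their highest library.

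Notch genes differed in direction. The ligand gene Jag1 stood at 84.8 and 81.9 CPM with sonidegib and at 295, 264 and 195 CPM in parental cells (log2 fold change -1.59 ± 0.25, adjusted p = 0.0847). Lfng, a glycosyltransferase that modifies the receptor, stood at 4.24 and 6.38 CPM with sonidegib, against 21.9, 22.3 and 33.0 CPM without (adjusted p = 0.0847). Dtx1, a ubiquitin ligase and target of Notch, stood at 72.0 and 76.7 CPM with sonidegib and at 196, 177 and 201 CPM without (adjusted p = 0.0847). Against these, Hey1, a repressor that Notch induces, stood at 229.7 and 231 CPM with sonidegib and at 65.8, 81.0 and 19.2 CPM without (log2 fold change 2.06 ± 0.53, adjusted p = 0.193), with parental 3 the lowest. The 21 tested Notch genes had a median of -0.25. Of 30 tested Wnt genes 2 were separated downward (6.67%, against 1.17% of all genes). They were Ccnd1, which is also on the Hedgehog list, and the receptor Fzd1. Fzd1 stood at 18.8 and 12.9 CPM with sonidegib and at 43.0, 45.1 and 73.6 CPM without. None of 14 tested BMP and Id genes was separated.

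In the insulin-like growth factor axis Igfbp5 alone was separated among 17 tested genes, whose median was -0.46. Irs1, an adaptor of the receptor, stood at 202 and 262 CPM with sonidegib and at 442, 424 and 498 CPM in parental cells (adjusted p = 0.167). Its log2 fold change of -0.97 was -0.27 with the length trend removed. Pappa2, a protease that cuts IGF binding proteins, was at 3.84 and 2.46 CPM with sonidegib and at 5.44, 9.06 and 33.5 CPM without, where parental 3 stood far above the others.

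Receptors of axons and adhesion proteins gave mixed directions. Among 65 tested axon guidance genes the ephrin ligands Efna3 and Efna4 were separated upward (3.08%, against 0.29% of all genes). In the same list 3 genes were separated downward (4.62%, against 1.17%). Efna3 stood at 28.8 and 24.0 CPM with sonidegib and at 8.47, 7.16 and 6.22 CPM in parental cells, and Efna4 at 65.2 and 92.3 CPM with sonidegib and at 29.7, 29.5 and 24.4 CPM without (both adjusted p = 0.0847). The lower genes included Plxna2 and the ephrin receptor Epha8, at 2.04 and 2.55 CPM with sonidegib and at 10.4, 8.90 and 59.9 CPM without. In the 10 tested sortilin and neurotrophin receptor genes the median was -0.79, and -0.34 with the length trend removed. Of the 10, 3 were separated downward (30.0%, against 1.17% of all genes), namely Sorcs2, Ngfr and Sorl1. Sorl1 was at 3.70 and 1.76 CPM with sonidegib and at 12.9, 13.8 and 51.9 CPM without (adjusted p = 0.179). The 54 tested cadherin and adhesion genes had a median of -0.39, which was 0.02 with the length trend removed. Fat2, a giant cadherin of granule cells, was at 1.10 and 1.32 CPM with sonidegib and at 5.69, 8.27 and 19.3 CPM without (adjusted p = 0.124). Among 95 tested ion channel genes 2 were separated downward (2.11%, against 1.17% of all genes). One was the potassium channel subunit Kcng1, at 1.5 and 0.176 CPM with sonidegib and 6.42, 4.73 and 6.90 CPM without.

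**Figure D5:**
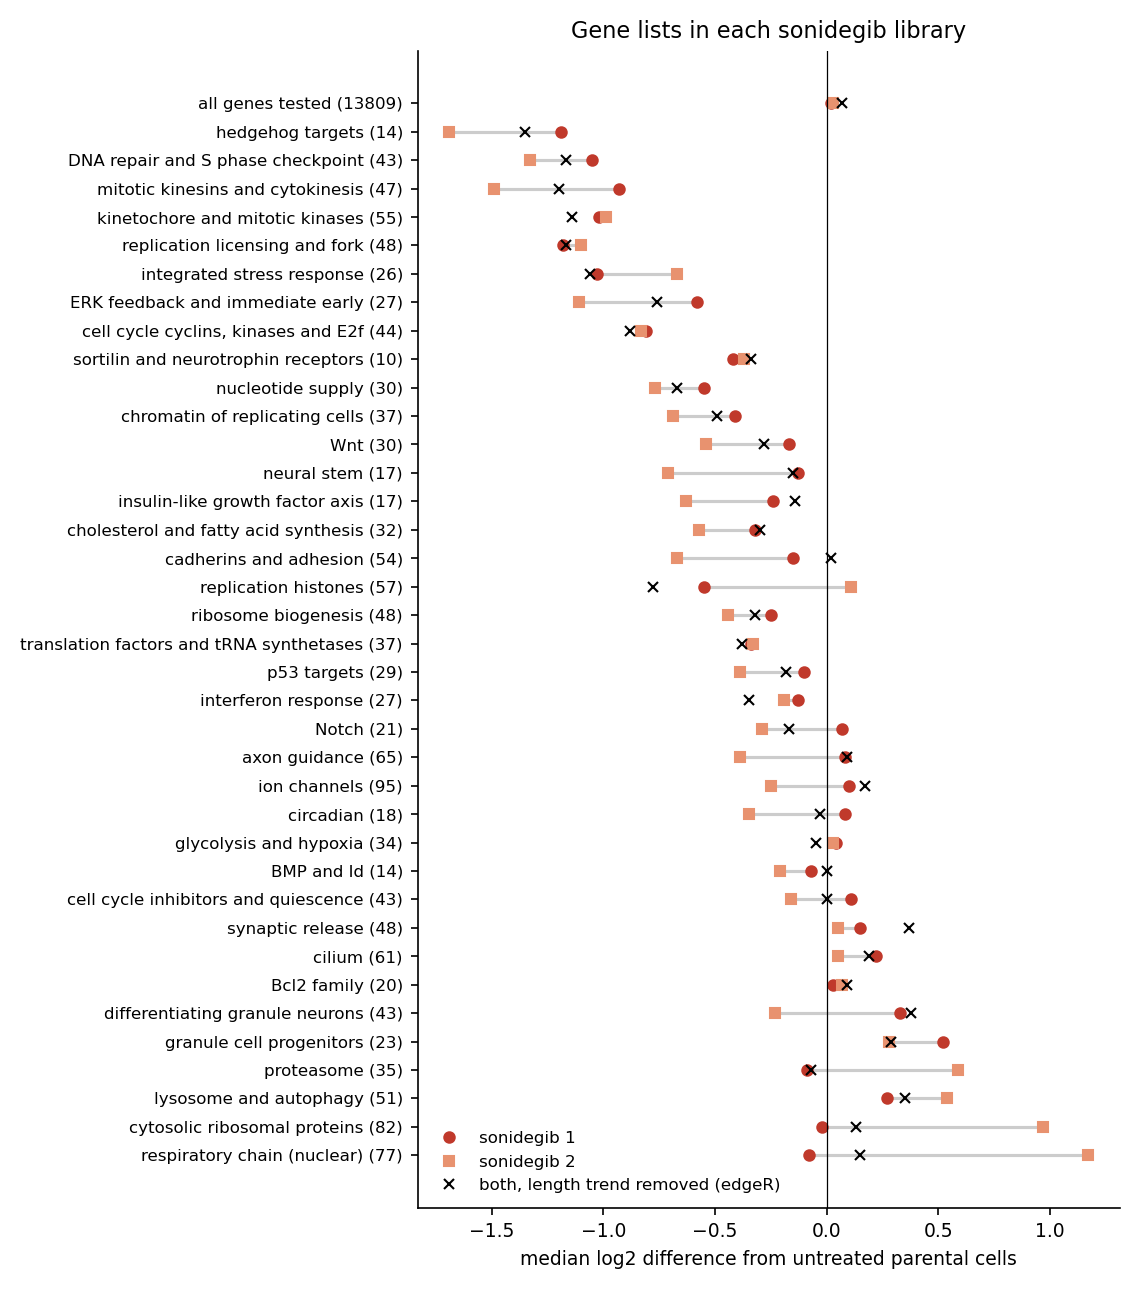
Median log2 difference from untreated parental cells (horizontal axis) in sonidegib 1 (circles) and sonidegib 2 (squares) for each gene list, with the number of genes tested in brackets, and the median log2 fold change of both with the length trend removed (crosses). The replication, repair, mitotic and cyclin lists lie below -0.80 in both libraries, while the ribosomal protein and respiratory chain lists lie near 0 in sonidegib 1 and near 1 in sonidegib 2.

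Genes of amino acid supply and the integrated stress response were lower. Of the 26 tested genes of that response 24 were below 0, and the median difference was -1.03 in sonidegib 1 and -0.67 in sonidegib 2. Slc7a5, the large neutral amino acid transporter, stood at 143 and 163 CPM with sonidegib and at 581, 347 and 846 CPM in parental cells (log2 fold change -1.95 ± 0.40, adjusted p = 0.124). Mthfd2, a mitochondrial folate enzyme, stood at 47.1 and 66.6 CPM with sonidegib, against 192, 119 and 175 CPM without (adjusted p = 0.118). The parental libraries were themselves spread, with list medians of -0.04, -0.48 and 0.56 in parental 1, 2 and 3. The list's median fold change of -0.93 was -0.58 without parental 3 and -1.30 without sonidegib 2. Its 2 genes separated downward (7.69%, against 1.17% of all genes) were Slc7a5 and the lipoprotein receptor Vldlr. Without sonidegib 2 there were 4 (15.4%, against 1.86%).

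Lysosome and autophagy genes lay above parental cells in both treated libraries. Of 52 listed 51 were tested, 43 were above 0, 26 lay above every parental library (51.0%, against 17.9% of all genes) and the median difference was 0.27 in sonidegib 1 and 0.54 in sonidegib 2. With the length trend removed the median was 0.35. Ctsb, a lysosomal cysteine protease, stood at 201 and 288 CPM with sonidegib and at 116, 117 and 121 CPM in parental cells (log2 fold change 1.05 ± 0.22, adjusted p = 0.131). Ctsf, of the same protease family and the 1 separated gene, stood at 33.5 and 40.1 CPM with sonidegib, against 13.7, 16.4 and 15.6 CPM without (adjusted p = 0.109). Map1lc3b, the autophagosome protein LC3B, stood at 149 and 225 CPM with sonidegib and at 99.8, 101 and 78.1 CPM without (adjusted p = 0.188). The groups of all 3 were apart, with sonidegib 2 the highest library.

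Genes of the ribosome and the respiratory chain differed in sonidegib 2 and not in sonidegib 1. The 82 tested cytosolic ribosomal protein genes had a median difference of -0.02 in sonidegib 1 and 0.97 in sonidegib 2, and the 77 respiratory chain genes had -0.08 and 1.17. With the length trend removed these medians were 0.13 and 0.15. Without sonidegib 2 they were -0.05 and -0.12. Rps28, of the small ribosomal subunit, stood at 220.0 and 696 CPM with sonidegib and at 186, 187 and 203 CPM in parental cells, and the fit gave an adjusted p of 0.303. Uqcrh, a subunit of complex III, stood at 121 and 374 CPM with sonidegib, against 111, 109.7 and 99.4 CPM without (adjusted p = 0.310). Ribosomal protein genes have many processed copies, so their counts may be shared among loci. The proteasome list behaved alike, at -0.09 in sonidegib 1 and 0.59 in sonidegib 2. Ribosome biogenesis genes, in contrast, had -0.25 and -0.44, with 41 of 48 below 0, and translation factors with tRNA synthetases had -0.34 and -0.33, with 31 of 37 below 0. Neither list held a separated gene.

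The remaining lists held few separated genes (1.46% of all genes tested were separated). Cholesterol and fatty acid synthesis (32 tested), glycolysis and hypoxia (34), cilium (61) and interferon response (27) held none, with medians of -0.44, -0.07, 0.12 and -0.26. The p53 target list held 1 of 29, the death receptor gene Eda2r, at 11.1 and 6.55 CPM with sonidegib and at 34.4, 43.8 and 54.7 CPM in parental cells (adjusted p = 0.0847). The Bcl2 family held 1 of 20, Bcl2 itself. The circadian list held 1 of 18, the transcription factor gene Hlf, at 2.14 and 1.84 CPM with sonidegib and at 5.85, 7.53 and 12.9 CPM without (adjusted p = 0.154).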

How the data were processed

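The authors deposited 1 table of raw counts per gene symbol. Per the submitters' processing notes, STAR and DESeq2 were used with build mm9. No source used here names the counter or annotation. The row with no gene name, 0.0141% to 0.0192% of counts, was left out. Groups were compared with edgeR 4.0.16 (R 4.3.3, robust quasi-likelihood fit, TMM, filterByExpr) on the 5 libraries, with two-sided tests, Benjamini-Hochberg adjustment and no covariate. CPM are per TMM-scaled library size, and differences of single libraries use log2(CPM + 0.5). SE come from the fold change and its F statistic. Alternatives used DESeq2 1.42.0 and limma 3.58.1, other filters, all 11 libraries, each library left out, a replicate block and an offset for transcript length (GENCODE M21 by symbol, 99.1% of genes tested). Deviations from the group mean correlated between libraries of equal replicate number at r = 0.248 (replicate 1) and -0.286 (replicate 2). The deviations of 2 sonidegib libraries mirror each other, so these values cannot decide whether replicate numbers pair the libraries.

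Genes were named where they passed the test, by the 14 widest gaps per direction, by up to 4 members per list with the widest gap, and as Hedgehog targets or markers. Widest gaps needed a mean of 5 CPM and left out predicted symbols. Lists and rules were chosen with earlier results of these data known. Some genes that the rules name are not reported here. Promoters were matched by symbol, the first listed where there were several.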

Additional observations from a re-analysis of the deposited data

How the results depend on the processing

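The number of genes changed, 9 by edgeR, was 9 with DESeq2 size factors, 9 with at least 1 CPM in 2 libraries and 8 (3 higher, 5 lower) with limma voom and sample weights. It was 723 by DESeq2, 109 with no filter on low counts, 316 with all 11 libraries in the fit, 65 with the length trend removed, and 120 at an adjusted p under 0.10. With the replicate numbers as a block it was 107, and 2 with the block and the length trend removed together. Whether replicate numbers mark paired libraries is not known. Leaving out 1 library at a time gave 0 to 3263 genes by edgeR, 247 to 4742 by DESeq2 (575 without sonidegib 2, 275 without parental 2, 478 without parental 3) and 0 to 1341 with the length trend removed. The threshold of 0.10 and the last 2 sets were chosen after seeing the data. Genes separated at least 2-fold, 202, numbered 206 with DESeq2 size factors, 261 and 183 at a minimum of 1 and 10 CPM, 187 with the length trend removed, 236 to 1860 with 1 library left out and 448 without parental 3 and sonidegib 2, the last chosen after seeing the data. The cause of these differences was not tested. Of 1044 refitted fold changes of 116 genes none changed sign, under the settings DESeq2, its size factors, the block, the length trend and each library left out. Those genes were named mainly for groups that did not overlap, so leaving out a library could hardly reverse them. Ccnd2 and Zic1, whose groups overlapped, were not among them. Leaving out a sonidegib library leaves 1, which is assumed to vary like the parental ones.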
